A study of Homo sapiens with 2 samples.

Results

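The genes that set the G1 decision of the cell cycle were examined in Seg-1 cells that received siRNA against FGF-AS, an RNA made from the strand opposite the fibroblast growth factor 2 gene, and in Seg-1 cells that received negative control siRNA. The set held 10 genes: the D cyclins CCND1, CCND2 and CCND3, the kinases CDK4, CDK6 and CDK2, the inhibitors CDKN1B, CDKN2A and CDKN2C, and the retinoblastoma gene RB1. Every probe set annotated to exactly 1 of these symbols was taken, which gave 25 probe sets for 9 of the 10 genes among 54613 probe sets on the array. No probe set carried the symbol CDKN2C in the annotation used, and that gene was not analysed here.

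Per the labels, Seg-1 is a human lung adenocarcinoma line identical to H460, first taken for an esophageal line. Each group was 1 culture of adherent cells on 1 Affymetrix Human Genome U133 Plus 2.0 array, reverse transfected for 72 hours with siRNA at a final concentration between 25 and 200 nM. Which concentration was used for which array is not stated in the labels. The control siRNA matches no known gene, and no untransfected culture was used here.

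A cell leaves G1 when growth signals raise the D cyclins, which bind and activate CDK4 and CDK6. These kinases, followed by CDK2 with its E cyclins, phosphorylate the RB protein, which then releases E2F transcription factors to switch on the genes of DNA synthesis. INK4 inhibitors (the products of CDKN2A, CDKN2C and relatives) block CDK4 and CDK6, while p27, the product of CDKN1B, blocks chiefly CDK2. H460 cells are known to have lost CDKN2A.

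The promoters of CDK4 and CDK6 are shown because these largely interchangeable kinases differ in their readings. CDK6 read lower with FGF-AS siRNA, while CDK4 read slightly higher, a difference that the arrays did not resolve. The pair was picked after these values were seen. Each window runs from 250 bases before to 50 bases after a RefSeq transcript start (GRCh38.p14), 5′ to 3′ on the gene's strand. Capitals mark E boxes (CACGTG, which reads alike on both strands) and GC boxes (GGGCGG, or CCGCCC on the other strand).
CDK4, chr12:57752261-57752560, minus strand: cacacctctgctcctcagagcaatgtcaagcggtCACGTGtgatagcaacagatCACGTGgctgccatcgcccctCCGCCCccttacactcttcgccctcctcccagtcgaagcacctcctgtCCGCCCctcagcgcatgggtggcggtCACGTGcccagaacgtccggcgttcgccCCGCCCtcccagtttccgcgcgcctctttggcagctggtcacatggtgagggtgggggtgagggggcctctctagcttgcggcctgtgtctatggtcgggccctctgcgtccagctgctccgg
CDK6, chr7:92836524-92836823, minus strand: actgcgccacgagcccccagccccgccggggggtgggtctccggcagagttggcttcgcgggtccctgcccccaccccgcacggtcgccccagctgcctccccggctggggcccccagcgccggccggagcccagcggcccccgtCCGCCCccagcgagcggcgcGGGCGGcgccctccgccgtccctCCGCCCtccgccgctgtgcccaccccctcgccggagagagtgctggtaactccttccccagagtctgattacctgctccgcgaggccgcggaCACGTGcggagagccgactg
The CDK4 window held 3 E boxes, whose first bases lay 216, 196 and 101 bases before the start, and 3 GC boxes. This CDK6 window held 1 E box, starting 31 bases into the transcript, and 3 GC boxes, and the second CDK6 window in the table held neither motif. Among all 35116 promoter windows, 7.26% held an E box, 0.0940% held 3 or more, and 45.0% held a GC box. None of the 13 windows found for 7 of the 10 genes held an E2F site (searched as TTTGGCGC, TTTCGCGC or TTTCCCGC on both strands), which 2.74% of all windows held. A motif so rare would most often be absent from 13 windows, so its absence says little of these genes. The only RB1 window was chr13:48476200-48476499, and any other start of RB1 was not searched. CCND1, CCND2 and CDK2 were not in the promoter table. A match of letters is a description and says nothing of which factor binds.

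Signals are linear intensities, 1 per probe set and array. Each log2 ratio sets the FGF-AS siRNA signal over the control siRNA signal, with an offset of 6.1 added to both, which understates the change of dim probe sets. A probe set counted as measured when its mean signal over both arrays was at least 23.9, the median of all probe sets, and is called brighter at 145.2 or more (the 75th percentile) and dimmer below that. Of the 25 probe sets 17 were measured, 10 of them brighter and 7 dimmer. They covered 8 genes, since no CDKN2A probe set reached the minimum. With 1 array a group there was no replicate and no test. The available error is how far log2 ratios of different probe sets for the same gene scatter, expressed as an SD, which was 0.36 for brighter probe sets (3050 genes) and 0.58 for dimmer ones (2365 genes). It covers neither culture nor hybridisation. In RNA from a whole culture, a different share of cells in G1 and a different amount of mRNA per cell cannot be told apart.

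The transfection was checked on its target first. NUDT6, which encodes the FGF-AS transcript, read 104.5 and 77.8 with FGF-AS siRNA on its probe sets 230329_s_at and 220183_s_at, against 376.9 and 267 with control siRNA. FGF2, the gene on the opposite strand, read 911.8 and 338.8 on its 2 probe sets with FGF-AS siRNA, against 676.2 and 326.7 with control siRNA. The arrays had similar scales, with median signals of 23.1 and 25.5. The 12352 measured genes had a median log2 ratio of 0.10 under median centring, against -0.02 as deposited, so ratios are also given relative to that median. Of 6 epithelial markers 5 were measured, and all 6 had summed signals of 13735.9 with FGF-AS siRNA and 14185.7 with control siRNA. Most of the epithelial sum was KRT18 (9327.2 and 10152.5) and KRT8 (3780.9 and 3475.7), and KRT7 and KRT19 were also brighter. EPCAM was dim at 43.8 and 34, and CDH1 was under the minimum at 18.4 and 0.9. The 4 lung markers summed to only 174.2 and 199.2, and NKX2-1, the lung lineage factor, was under the minimum at 11.8 and 24.9. The 4 intestinal markers summed to 62.5 and 100.3, the 2 squamous markers with a probe set (KRT5 and KRT14) to 5.8 and 8.6, and the 2 leukocyte markers to 35.8 and 38.8, while the 3 mesenchymal markers summed to 10842.7 and 12663.1. Nearly all of that sum was VIM (10586.5 and 12182.4), while COL3A1, a fibrillar collagen gene, read 104.6 with FGF-AS siRNA and 316.4 with control siRNA, a log2 ratio of -1.54. The part of these differences in the results was not tested.

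Among the 8 measured genes, each taken at its brightest probe set, CCND1 and CDK6 read lower with FGF-AS siRNA by more than the probe set SD. CDK4, CCND3, CDK2, CDKN1B and RB1 lay within the SD of no difference. This split depended on the scaling. Under median centring CCND1 stood at -0.34 and CDK6 at -0.30, both within the SD of 0.36. CCND2 was dim. In all, 6 genes lay below 0 and 2 above, where 51.8% of all measured genes lay below 0. None passed 2-fold, which 4.77% of measured genes did (2.05% higher and 2.72% lower). CCND2 alone passed 1.5-fold, upward, where 17.5% of measured genes passed it (7.96% higher and 9.52% lower). The median log2 ratio of the 8 genes was -0.08, or -0.07 relative to the median of all measured genes, and it was 0.03 under median centring. The picture at the level of single probe sets was different. Of the 17 measured probe sets 15 lay below 0, against 56.7% of all measured probe sets, and their median log2 ratio was -0.57, against -0.07 over all measured probe sets. At least 2-fold lower were 4 of the 17, against 5.33% of all, 3 of them from CDK6 and 1 from RB1. None was at least 2-fold higher, against 1.94% of all. Among the 10 brighter probe sets 9 lay below 0 and 3 were at least 1.5-fold lower, against 54.5% and 9.39% of all brighter probe sets, and none was at least 2-fold lower, against 2.57%. Probe sets of the same gene share a target and are not independent, and 7 of the 17 belong to CDK6.

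**Figure D1:**
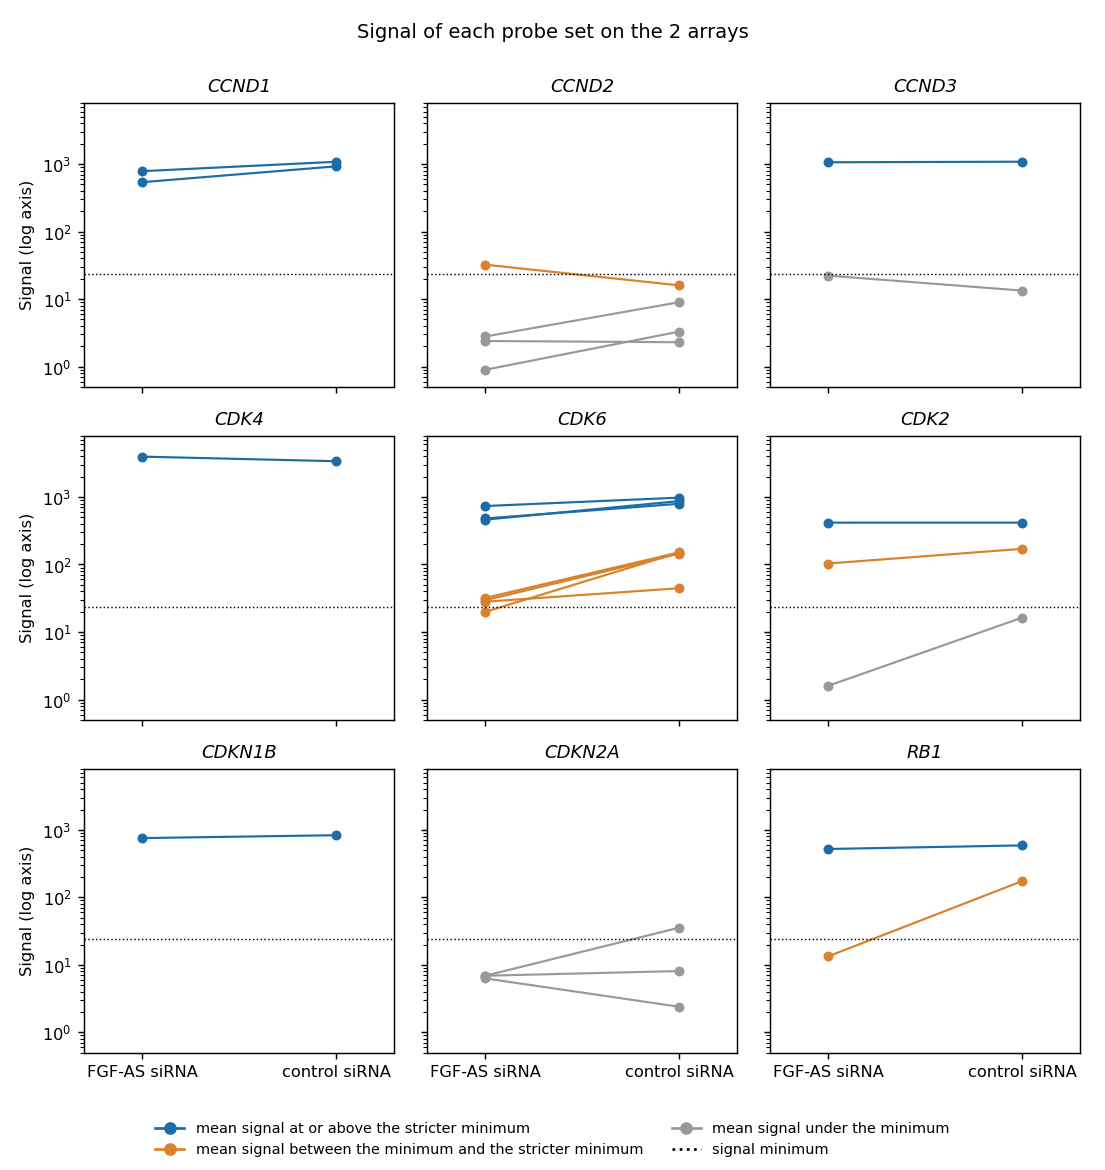
Signal (log axis) of each of the 25 probe sets with FGF-AS siRNA (left point) and control siRNA (right point), 1 panel per gene and 1 line per probe set. All 7 lines of CDK6 and both of CCND1 are lower at the FGF-AS siRNA end, the CDK4 line is slightly higher there, and the 3 CDKN2A lines stay near or under the signal minimum of 23.9.

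Of the D cyclins, CCND1, the growth factor-responsive member, was the only one with every probe set bright, and both read lower. Its probe set 208712_at read 785.9 with FGF-AS siRNA and 1082.4 with control siRNA. Its probe set 208711_s_at read 540.1 with FGF-AS siRNA and 926.6 with control siRNA. The log2 ratios were -0.46 (1.37-fold lower) and -0.77 (1.71-fold lower), which is 1.28 and 2.16 times the SD of brighter probe sets. Their mean was -0.62 ± 0.22 (SD over 2 probe sets), and the brightest stood at percentile 13.8 of measured genes. Relative to the median of all genes that probe set lay at -0.44.

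CCND3, the D cyclin with roles in blood cells and muscle among other tissues, read 1064.2 with FGF-AS siRNA and 1085.8 with control siRNA on its bright probe set 201700_at. The log2 ratio of -0.03 was far within the SD, and it turned to 0.09 under median centring. Its other probe set, 1562028_at, was under the minimum on both arrays (22.3 and 13.4). The log2 ratio of CCND1 on its brightest probe set was lower than that of CCND3 by 0.43, a difference that carries the error of both.

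CCND2, the D cyclin known for its roles in germ cells, brain and B cells, was at the bottom of the signal range. Its brightest probe set, 231259_s_at, read 32.4 with FGF-AS siRNA and 16 with control siRNA, a log2 ratio of 0.80 that exceeded the SD of dimmer probe sets 1.38 times. The control reading was itself under the minimum. The other 3 probe sets of CCND2 read between 0.9 and 2.8 with FGF-AS siRNA and between 2.3 and 9 with control siRNA, so they gave no second view of this difference. The detection calls that would tell such signals from background were not used here.

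CDK4 and CDK6, the catalytic partners of the D cyclins, did not read alike. CDK4 had a single probe set, 202246_s_at, which read 3956.8 with FGF-AS siRNA and 3384.9 with control siRNA. Its log2 ratio of 0.22 (1.17-fold higher) was 0.63 of the SD and stood at percentile 74.1 of measured genes, so the arrays did not resolve it from no difference. It stayed above 0 under every alternative in which it could be computed, from 0.21 to 0.34.

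CDK6 was lower on all 7 of its probe sets. The 3 brighter ones read 734.2 (224847_at), 480.2 (224848_at) and 461.2 (224851_at) with FGF-AS siRNA, against 976.9, 792.6 and 868.1 with control siRNA. Each of the 3 was lower with FGF-AS siRNA. Their log2 ratios were -0.41, -0.72 and -0.90, between 1.33-fold and 1.87-fold lower, with a mean of -0.68 ± 0.25 (SD over 3 probe sets). Each exceeded the SD of brighter probe sets, by 1.14, 2.00 and 2.53 times.

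The dimmer probe sets of CDK6 differed by more. Probe set 243000_at read 32 with FGF-AS siRNA and 150.9 with control siRNA, 4.12-fold lower with a log2 ratio of -2.04. Probe set 207143_at read 29.6 and 144.8, 4.23-fold lower with a log2 ratio of -2.08. Probe set 235287_at read 19.9 and 149.9, 6-fold lower with a log2 ratio of -2.58. The FGF-AS siRNA readings of these 3 probe sets were close to the signal minimum, that of 235287_at under it. The faintest, 231198_at, read 28.1 and 44.5, a log2 ratio of -0.57 that was within the SD of dimmer probe sets.

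The size of the CDK6 difference therefore depended on the probe set. It was -0.41 on the brightest, -0.90 as the median of the 7 and -1.33 ± 0.88 as their mean (SD over 7 probe sets). Their range of 2.18 on the log2 scale was reached by 28 of the 176 genes with at least 6 measured probe sets, or 15.9%, and its low end is 235287_at, whose FGF-AS siRNA reading was under the minimum. The direction did not depend on it: CDK6 was among 30 of these 176 genes for which all probe sets lay below 0, or 17.0%. Dimmer probe sets at large leaned the same way, since 59.2% of them lay below 0, 8.41% were at least 2-fold lower and 3.01% at least 2-fold higher. At least 4-fold lower were 1.26% of dimmer probe sets, against 4 of the 7 dimmer ones in this set, a size chosen after the values were seen. The brightest probe set of CDK6 stood at percentile 16.2 of measured genes, and at -0.39 relative to their median. On the brightest probe sets the log2 ratio of CDK6 minus that of CDK4 was -0.63, a difference that carries the error of both.

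**Figure D2:**
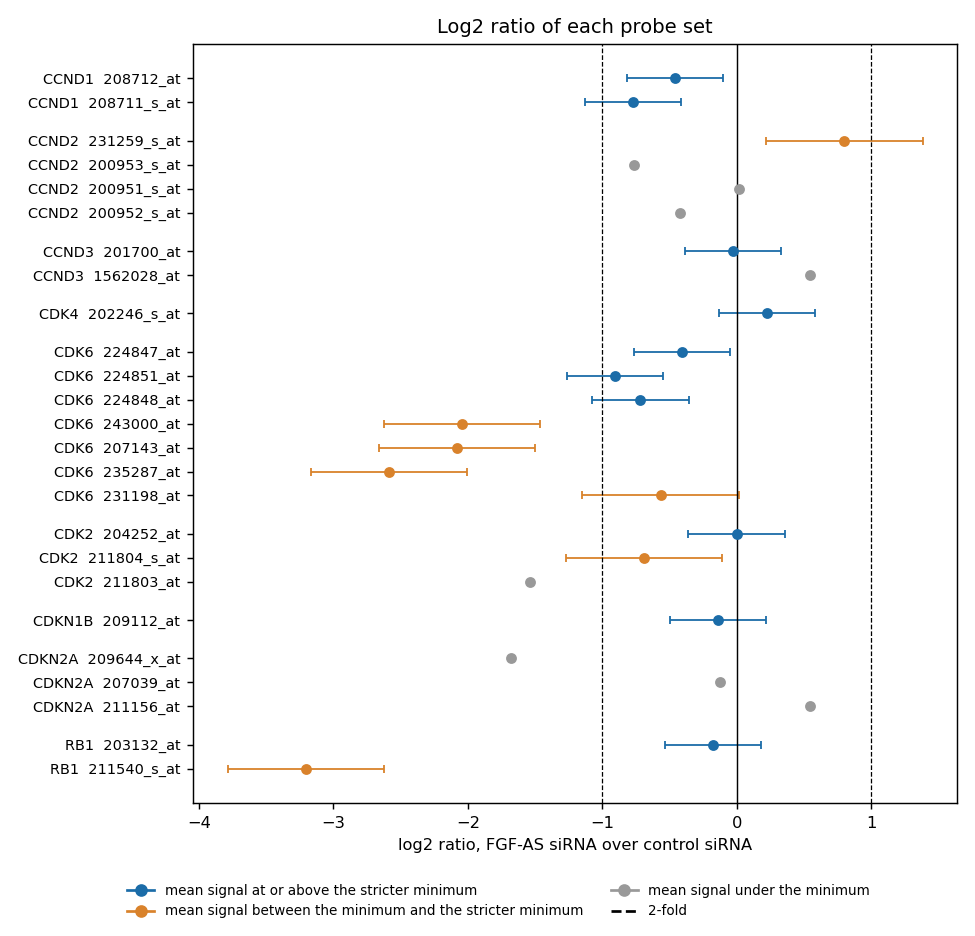
Log2 ratio of FGF-AS siRNA over control siRNA for each of the 25 probe sets, by gene from top to bottom. Bars are the SD between probe sets of a gene, 0.36 for brighter (blue) and 0.58 for dimmer (orange) probe sets, with none for those under the minimum (grey). CDK6 lies left of 0 throughout. Of the measured probe sets, 3 of CDK6 and 1 of RB1 lie beyond the 2-fold line. Among those under the minimum, 211803_at of CDK2 (-1.54) and 209644_x_at of CDKN2A (-1.68) lie beyond it too.

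CDK2, the kinase that works with the E and A cyclins after the D cyclin step, read the same on both arrays on its bright probe set. Probe set 204252_at read 416.5 with FGF-AS siRNA and 416.9 with control siRNA, a log2 ratio of -0.00. Its sign turned with the scaling, to 0.11 under median centring and 0.07 under quantile normalization. The dimmer 211804_s_at read 103.4 with FGF-AS siRNA and 170.4 with control siRNA, a log2 ratio of -0.69 or 1.18 times the SD of dimmer probe sets. The faint 211803_at was under the minimum at 1.6 and 16.3. The 2 measured probe sets lay 0.69 apart, a gap matched or exceeded by 37.2% of genes with several, so their disagreement was ordinary.

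Of the inhibitors, CDKN1B alone gave a usable signal. Its single probe set 209112_at read 754.4 with FGF-AS siRNA and 832.3 with control siRNA. The log2 ratio of -0.14 was 0.39 of the SD, which covers neither culture nor hybridisation. The mRNA reading of p27, the inhibitor that falls as cells commit to division, thus lay within the scatter between probe sets. It lay at percentile 36.4 of measured genes.

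CDKN2A encodes p16, the INK4 inhibitor of CDK4 and CDK6, and from another reading frame ARF, which protects p53 from MDM2. Its 3 probe sets were all under the minimum. They read 6.9 (209644_x_at), 6.9 (207039_at) and 6.3 (211156_at) with FGF-AS siRNA, against 35.5, 8.1 and 2.4 with control siRNA. The FGF-AS siRNA readings were near the offset of 6.1, and only the 35.5 of the control array exceeded the minimum. The ratios went both ways, from -1.68 to 0.54, and no difference can be read from them.

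RB1, which encodes the pocket protein that these kinases inactivate, had probe sets that disagreed. The bright 203132_at read 520.3 with FGF-AS siRNA and 588 with control siRNA, a log2 ratio of -0.17 that was 0.49 of the SD. The dimmer 211540_s_at read 13.4 with FGF-AS siRNA and 173.6 with control siRNA. That is 9.22-fold lower, a log2 ratio of -3.20, and the first reading was under the signal minimum. The gap of 3.03 between the probe sets was matched or exceeded by 0.455% of the 6155 genes with several measured probe sets. By its bright probe set RB1 lay within the SD of no difference, and by the mean of both it would stand at -1.69. Which transcripts each probe set reports was not examined here.

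**Figure D3:**
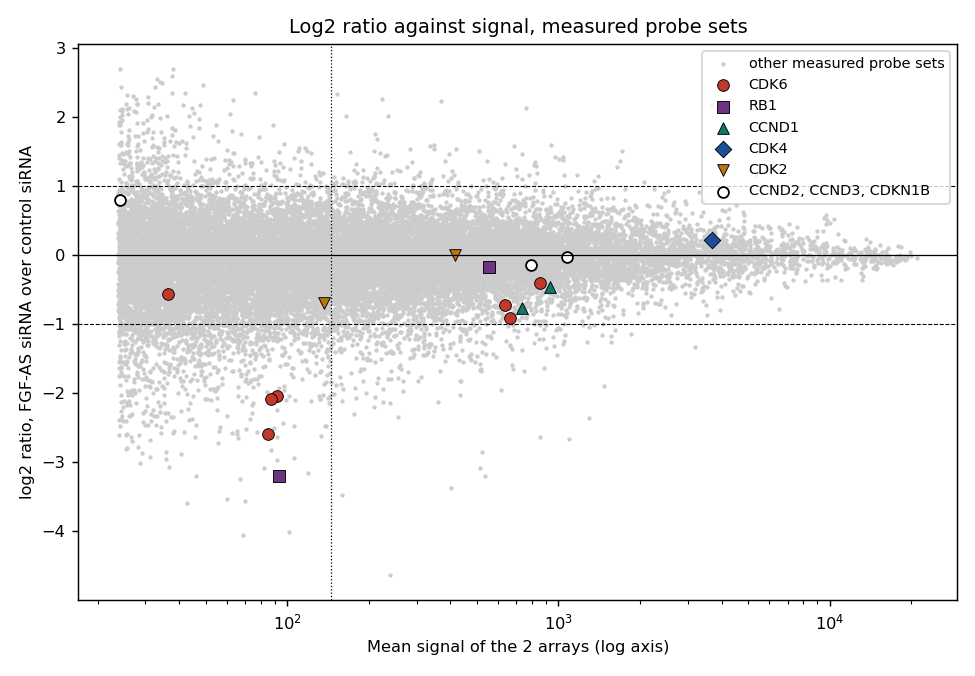
Log2 ratio (vertical) against mean signal (horizontal, log axis) for all measured probe sets annotated to 1 gene (grey) and for those of the G1 genes (coloured). The dotted line is the stricter minimum of 145.2 and dashed lines are 2-fold. Of the 4 coloured points below the lower dashed line 3 are CDK6 and 1 is RB1, and all 4 have mean signals between 84.9 and 93.5.

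The genes that act with this set were described from 11 lists. For the counts that follow, 48.1% of all measured genes lay above 0 and 51.8% below. The E and A cyclins drive CDK2. CCNE2 read 236.7 with FGF-AS siRNA and 128.1 with control siRNA (log2 ratio 0.86, and 0.31 on its other probe set), CCNA2 read 1171.6 and 961.9 (0.28), and CCNE1 read 156.5 and 208.3 (-0.40). Both directions occurred among the E cyclins, and the median of the 3 was 0.28.

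Among the other CDK inhibitors 3 of 5 were measured. CDKN1A, which encodes p21, read 1236.4 with FGF-AS siRNA and 2237.4 with control siRNA, a log2 ratio of -0.85. CDKN3, which encodes a phosphatase that binds CDKs, read 2677.3 and 1937.8 (0.47, and 0.43 on its other probe set). CDKN2D, which encodes the INK4 protein p19, read 47.4 and 14.1 (1.41), where the control reading was under the minimum. The median of 0.47 became -0.19 at the stricter minimum and -0.46 with no minimum, so the list as a whole had no settled direction. CDKN2B, the neighbour of CDKN2A that encodes p15, was under the minimum at 1.7 and 6.9, and so was CDKN1C at 11 and 17.5.

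The relatives of RB1 went apart on their brightest probe sets. RBL1, which encodes the pocket protein p107, read 134.2 with FGF-AS siRNA and 73.2 with control siRNA (log2 ratio 0.82), but its other 2 probe sets gave -1.07 and -0.11. RBL2, which encodes p130, the pocket protein of resting cells, read 561.3 and 688.3 (-0.29, and -1.18 on the other). The mean over probe sets put RBL1 at -0.12 and RBL2 at -0.74.

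The partners of the pocket proteins, the E2F and DP factors, were all measured, with 5 of 10 above 0 and a median log2 ratio of 0.17. The highest were the activating factors E2F1, at 338.5 with FGF-AS siRNA and 185 with control siRNA (0.85), and E2F3, at 361.2 and 223.3 (0.68). The lowest were E2F5, a p130-binding repressor, at 177.1 and 318 (-0.82), and TFDP2, a dimerisation partner, at 373.2 and 465.8 (-0.32). The other 3 measured probe sets of TFDP2 ran from -1.37 to -0.16.

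Genes that E2F factors switch on leaned higher with FGF-AS siRNA. Of 19 measured E2F targets 18 lay above 0 on the brightest probe set, against 48.1% of all measured genes. Their median log2 ratio was 0.37 (SD across genes 0.29), or 0.39 relative to all measured genes. On other measured probe sets RRM1 gave -0.22 and MCM4 ran from -0.61 to 0.67. The remaining targets with several measured probe sets had all of them above 0. DNMT1, the maintenance DNA methyltransferase, read 1456.2 with FGF-AS siRNA and 649.6 with control siRNA (1.16). CDT1, a replication licensing factor, read 662.6 and 347.4 (0.92, and 0.27 on its other probe set). At the low end were EZH2, a Polycomb methyltransferase, at 458.8 and 530.8 (-0.21) and MCM7, a helicase subunit, at 3592.6 and 3257.9 (0.14). These genes and the list were chosen with earlier results of these arrays known, so their direction is no independent evidence. CCND1 and CDK6 read lower on the same arrays on which these downstream genes read higher. Under median centring the brightest probe sets of CCND1 and CDK6 lay within the SD.

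The CDK-activating genes had 4 of 6 above 0 and a median of 0.09. CDC25A, the phosphatase that frees CDK2 from inhibition, read 308.2 with FGF-AS siRNA and 182.1 with control siRNA (log2 ratio 0.74), but its other 2 probe sets gave -0.49 and -0.13. The others lay between -0.24 (CDK7, the kinase of the CDK-activating complex) and 0.19 (CDC25C), with CCNH and MNAT1, the partners of CDK7, at -0.01 and 0.06 and CDC25B at 0.13. None of these 5 exceeded the SD of brighter probe sets, and CDC25C turned to -0.15 and CDC25A to 0.04 by the mean over probe sets.

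Of the genes of p27 and cyclin E turnover 6 of 7 lay above 0, against 48.1% of all measured genes, with a median of 0.18. Of these 6, CKS1B alone exceeded the SD of brighter probe sets. FBXW7, the ubiquitin ligase subunit that marks cyclin E for destruction, read 150.8 with FGF-AS siRNA and 324 with control siRNA (log2 ratio -1.07, 2.10-fold lower, and -0.68 and 0.05 on its other probe sets). The p27 ligase cofactor CKS1B read 2906.6 and 2126.6 (0.45). SKP2, the subunit that binds p27, read 1469.3 and 1186.7 (0.31), but lay at -0.55 by the mean over its probe sets, and CUL1, the ligase scaffold, at 1136.2 and 1109.3 (0.03).

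Of the D cyclin turnover genes 2 of 5 lay above 0 with a median of -0.17. GSK3B, the kinase that marks cyclin D1 for export and destruction, read 429 with FGF-AS siRNA and 565.2 with control siRNA (log2 ratio -0.39). FBXO4 stood at -0.36, AMBRA1, which targets D cyclins for destruction, at -0.17, FBXO31 at 0.17 and the dim CRYAB at 0.43. GSK3B and FBXO4 lay at about the SD of brighter probe sets and AMBRA1 within it. The other probe sets of GSK3B ran from -0.58 to -0.00, and that of FBXO31 gave 0.77.

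Upstream regulators of the D cyclins and p27 had 4 of 8 above 0 and a median of 0.10. MYC, a factor that binds E boxes, read 4120.5 with FGF-AS siRNA and 5152 with control siRNA (log2 ratio -0.32), and FOXO1, a forkhead factor that raises p27, read 190.3 and 261.1 (-0.44). FOXO3, its relative, read 321 and 207.9 (0.61), and FOXM1, a forkhead factor of dividing cells, read 549.8 and 366 (0.58). The 2 FOXO genes thus read in opposite directions.

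Other cyclin-dependent kinases had 7 of 10 below 0 and a median of -0.22. CDK1, the mitotic kinase, stood highest at 5799.8 with FGF-AS siRNA and 3772.8 with control siRNA (log2 ratio 0.62), followed by CDK5 at 0.17. The dim CDK14 was lowest at 50 and 93.9 (-0.83), followed by CDK20 at -0.47. The DREAM core, which represses cell cycle genes with p130 in resting cells, had 1 of 5 above 0 and a median of -0.31. Its members were LIN54 at -1.15 (18.5 and 48.5, the first under the minimum), LIN52 at -0.49, RBBP4 at -0.31 (-1.40 to 0.10 on its other 5 probe sets), LIN9 at -0.07, which turned positive under median centring (0.05) and quantile normalization (0.08), and LIN37 at 0.21.

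**Figure D4:**
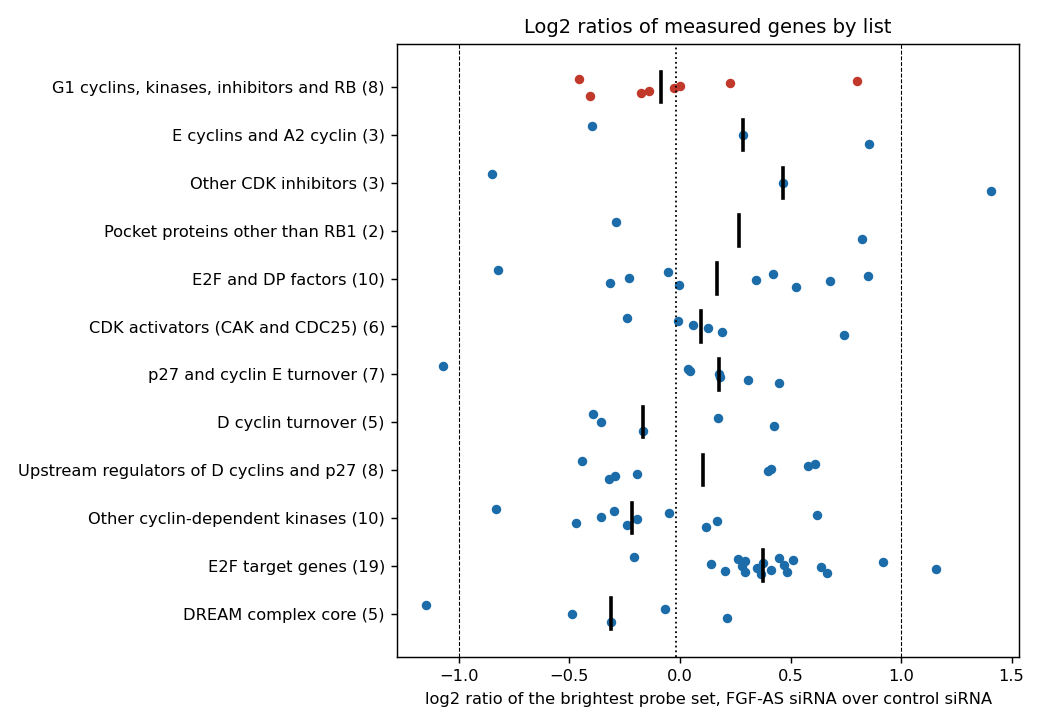
Log2 ratio of the brightest probe set of each measured gene (points) in the G1 set (red) and the 11 lists of related genes (blue), with the number measured in brackets. Thick bars are medians, the dotted line is the median of all measured genes (-0.02) and dashed lines are 2-fold. The G1 set spreads on both sides of the dotted line with a median of -0.08, and 18 of the 19 E2F targets lie right of 0.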

How the data were processed

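The authors deposited 1 intensity per probe set and array, not logged. GCOS and MAS5 are named in the submitters' processing notes, without version or scaling target, so how the authors scaled the arrays against each other stays unknown. Of 54675 probe sets 62 were Affymetrix controls and were left out. Of the others 41091 carried 1 gene symbol, 1801 several and 11721 were unnamed here, and symbols were looked up in RefSeq (GRCh38.p14), which covered 41037 and changed none.

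The log2 ratios, the offset of 6.1 (25th percentile of all signals) and the minimum were computed with Python 3.11.15, pandas 2.3.3 and numpy 2.4.6, with no further scaling. A gene was taken at its brightest probe set, which left 12352 of 19775 genes. Array number (1 per group) limits the precision, and signals carry no counting error. The computation was tested on simulated data. Named genes were all members, every gene of lists with at most 6 measured genes and otherwise the 2 highest and 2 lowest, with NUDT6 and FGF2 as the siRNA check. RRM1 and MCM4 were also named, for other probe sets below 0. Members and lists were chosen with earlier results of these data known. Alternatives were the offset, scaling, minimum and choice of probe set. Sequences are from RefSeq.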

Additional observations from a re-analysis of the deposited data

How the results depend on the processing

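Over the 8 alternatives tried, no log2 ratio past 2-fold changed sign. Of 640 recomputed values 612 stayed within the probe set SD (or, for counts, within 1.5 times). Many of these could not move. A gene whose brightest probe set stayed in kept its ratio under either change of the minimum. A gene with 1 measured probe set also kept it under the mean over probe sets. In 21 of the 640 values the sign differed from the value reported, all for values short of 2-fold. Among these were the medians of the E2F and DP factors (-0.00 at the stricter minimum) and of D cyclin turnover (0.00 with no minimum). The mean over probe sets gives no count of probe sets. No paired analysis was possible because each group holds 1 array. The mean over probe sets moved CDK6 to -1.33 and RB1 to -1.69. Member genes above 0 numbered 4 under median centring. They numbered 0 when _s_at and _x_at probe sets were dropped, because CDK4 and CCND2 had no other kind and left the count. They numbered 1 at the stricter minimum, because CCND2 fell under it. At that minimum 0 member probe sets were at least 2-fold lower, since the 4 that were are dimmer. By construction, the counts of all measured genes at least 2-fold higher and lower were 129 and 165 with the offset at the median, 76 and 86 at the stricter minimum, and 1074 and 1270 with no minimum, against 253 and 336. List medians moved for the other CDK inhibitors (-0.19 at the stricter minimum, -0.46 with no minimum), the other pocket proteins (-0.43 by the mean over probe sets, -0.29 at the stricter minimum) and the DREAM core (-1.15 when _s_at and _x_at probe sets were dropped). CCND1 ran from -0.62 to -0.34 and CDKN1B from -0.14 to -0.03. Background signal, which detection calls would measure, limits the dimmer probe sets.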
